A study of Rattus norvegicus with 15 samples.

Results

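The genes described here are 8 rat genes that belong to or accompany the phenobarbital-type response of the liver: Cyp2a1, Cyp2a2, Cyp2b1, Cyp2b2, Cyp2b3, Por, Alas1 and Ces2c. They were found as every probe set whose array annotation names 1 of these genes and no other, which gave 7 probe sets for 6 of the genes, of 31099 probe sets and 14218 genes so named on the array. Cyp2b1 and Cyp2b2 had no probe set of their own. They share 1 probe set, and Cyp2a1 and Cyp2a2 share another besides their own, so 2 shared probe sets are given alongside but are not counted among the 7. All 9 probe sets passed the filter on dim signals.

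Liver RNA was measured in 15 male Sprague-Dawley rats, 5 on each of 3 diets, with 1 array per sample. The genistein group ate 2 g/kg genistein for 14 days, the daidzein group ate 2 g/kg daidzein for 14 days, and the control group ate the same base of casein, palm oil, corn starch and sucrose without isoflavone. All rats were 4 weeks old at the start and had 5 days to adapt. The labels name the arrays of each diet biological replicates and record no other treatment, and intake or blood levels of the compounds are not given in the sources used here. Both compounds are isoflavones of soy, which differ in that genistein has an additional hydroxyl group.

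The constitutive androstane receptor CAR, encoded by Nr1i3, is a nuclear receptor that waits in the cytoplasm of hepatocytes. Phenobarbital releases it by blocking signalling through the epidermal growth factor receptor, and in the nucleus CAR pairs with the retinoid X receptor and switches on enzymes that clear drugs and steroids. Cyp2b1 and Cyp2b2 are its classical targets in the rat, whereas Cyp2b3 is known as a constitutive liver enzyme. Por passes electrons from NADPH to every microsomal cytochrome P450, Alas1 starts the synthesis of their heme, and Ces2c is a carboxylesterase that hydrolyses esters. Cyp2a1 and Cyp2a2 hydroxylate testosterone, and in adult rats Cyp2a1 is the form of the female liver and Cyp2a2 that of the male liver.

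The promoters of the member whose own probe set passed the test and of the pair that cannot be told apart on the array are shown first. They are RefSeq windows on the rat GRCr8 build, from 250 bases before the gene start to 50 bases after it, and 7 of the 8 genes had one. Cyp2a1 lies on the plus strand at chr1:91359028-91359327, and the capitals mark its TATAAA motif, whose first base lies 36 bases before the start.
Cyp2a1: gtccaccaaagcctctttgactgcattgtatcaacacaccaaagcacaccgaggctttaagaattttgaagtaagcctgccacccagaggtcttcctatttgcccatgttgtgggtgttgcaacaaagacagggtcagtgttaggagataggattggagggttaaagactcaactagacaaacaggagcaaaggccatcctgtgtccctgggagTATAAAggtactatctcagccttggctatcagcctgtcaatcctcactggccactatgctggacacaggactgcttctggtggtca
The Cyp2b1 window is chr1:90645869-90646168 and the Cyp2b2 window chr1:90722031-90722330, both on the plus strand, and here the capitals mark the bases that differ between them.
Cyp2b1: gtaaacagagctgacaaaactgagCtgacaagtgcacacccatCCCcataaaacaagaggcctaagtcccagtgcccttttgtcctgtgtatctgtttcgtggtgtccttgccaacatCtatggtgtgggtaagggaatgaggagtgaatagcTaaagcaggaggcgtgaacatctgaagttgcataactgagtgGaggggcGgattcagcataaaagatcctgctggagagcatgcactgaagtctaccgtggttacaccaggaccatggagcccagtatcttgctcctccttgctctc
Cyp2b2: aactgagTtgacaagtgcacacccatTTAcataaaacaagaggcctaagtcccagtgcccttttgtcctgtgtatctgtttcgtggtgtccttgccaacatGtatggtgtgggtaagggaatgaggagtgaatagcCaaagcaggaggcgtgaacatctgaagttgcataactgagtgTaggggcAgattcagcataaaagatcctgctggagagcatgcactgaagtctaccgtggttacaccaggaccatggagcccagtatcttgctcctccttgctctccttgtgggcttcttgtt
Aligned over 283 columns, the Cyp2b1 and Cyp2b2 windows were identical in 275 and mismatched in 8, an identity of 97.17% without a gap. The Cyp2b3 window was 60.6% identical to that of Cyp2b1 and 58.28% identical to that of Cyp2b2. Each of these alignments had 302 columns, and its 51 gap columns were counted as not identical. In the RefSeq table no gene is listed between Cyp2a1 and Cyp2a2 or between Cyp2b2 and Cyp2b3, 1 lies between Cyp2b1 and Cyp2b2, and 11 lie between Cyp2b3 and Cyp2a1, all on chromosome 1. In all, 3 motifs were searched on both strands of each window. TATAAA was found in that of Cyp2a1 among the 7 and in 14.222% of 33469 rat promoters. The nuclear receptor half-site AGGTCA was found in the Por window, on the opposite strand (16.179% of promoters), and TTCNNNGAA, a STAT-type motif, in the Alas1 window (8.874%). No match overlapped another. The phenobarbital-responsive enhancer known for rat Cyp2b2 lies farther upstream than these windows reach.

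Levels below are log2 values rebuilt from the deposited scores, with an arbitrary zero, so a difference of 1 is a change of 2-fold and levels of different probe sets cannot be set against each other. SD is that of the 5 arrays of a diet, SE and 95% intervals come from a limma model of all 15 arrays, and the adjusted p is limma's after Benjamini-Hochberg adjustment over 18625 tested probe sets, with calls made under 0.05. The genistein and daidzein comparisons with control use the same 5 control arrays. Liver was sampled as bulk tissue, so fewer cells of a type and less RNA per cell cannot be told apart.

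Of the 7 member probe sets, 1 rose and none fell with genistein against control, where 0.15% of all tested probe sets were called higher and 0.172% lower (0.322% in either direction). It was Cyp2a1. Without adjustment, 3 were higher and 1 lower at p under 0.05, where 5.45% of all tested probe sets were higher and 5.5% lower (11% in either direction). Daidzein against control called none of the 7 (0.0161% of all tested probe sets), with 1 higher and none lower before adjustment, where 4.1% of all tested probe sets were higher and 4.14% lower (8.25% in either direction). Genistein against daidzein also called none, where 0.0322% of all tested probe sets were called higher and 0.0805% lower (0.113% in either direction), and 1 was higher and 1 lower before adjustment (4.64% higher and 4.73% lower over all tested probe sets, 9.37% in either direction). The median log2 change of the 7 was 0.39 for genistein against control, 0.22 for daidzein against control and 0.17 between the compounds, and the median over all tested probe sets was 0.00 in each. In every comparison the median of the 7 was the value of the brighter Por probe set. Por enters the 7 with both of its probe sets, so these medians describe Por and no shift of all members.

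**Figure D1:**
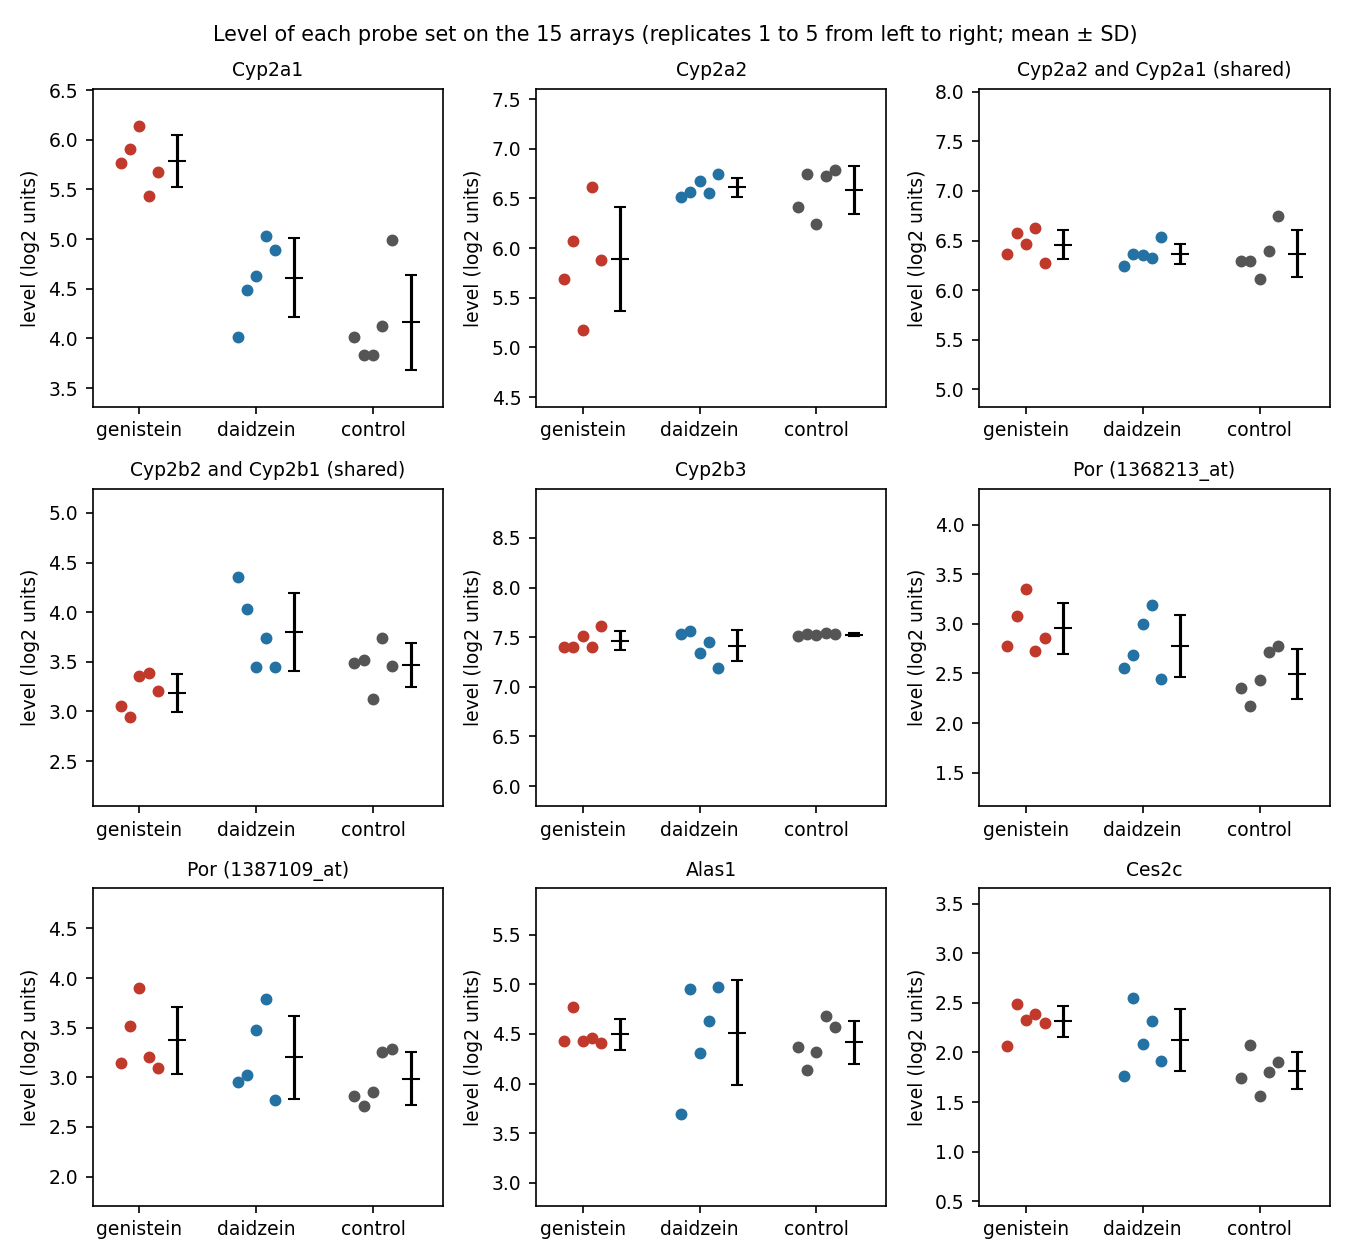
Levels of the 9 probe sets in every array, in log2 units with an arbitrary zero, with genistein, daidzein and control from left to right, points for the 5 replicates and bars for mean and SD. Each panel spans the same number of log2 units; the genistein arrays of Cyp2a1 (5.44 to 6.14) lie above all control arrays (3.83 to 4.99).

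Cyp2a1, the female-type steroid hydroxylase (Entrez gene 24894), rose with genistein. Its levels in genistein arrays 1 to 5 were 5.77, 5.90, 6.14, 5.44 and 5.67. In the daidzein arrays they were 4.02, 4.49, 4.63, 5.04 and 4.89, and in the control arrays 4.01, 3.84, 3.83, 4.13 and 4.99. Every genistein array was above every daidzein and every control array, and control 5 stood above the other 4 control arrays. The means were 5.79 ± 0.26 with genistein, 4.61 ± 0.40 with daidzein and 4.16 ± 0.48 in control (SD, n = 5 each). Genistein exceeded control 3.09-fold (log2 change 1.63, SE 0.23, 95% interval 1.13 to 2.12, limma adjusted p = 0.0102), which ranked 7 by p among the 18625 probe sets. In this comparison the groups did not overlap in 2.57% of all tested probe sets, 1.21% higher and 1.35% lower.

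The same gene did not pass the test with daidzein, whose log2 change against control was 0.45 (95% interval -0.04 to 0.94, limma adjusted p = 0.642), with 4 of 5 daidzein arrays above the control mean. Genistein was 2.26-fold above daidzein, a log2 difference of 1.17 (95% interval 0.68 to 1.67) with an unadjusted p of 0.000137 and a limma adjusted p of 0.0699, which misses the threshold although the groups did not overlap (0.966% of all tested probe sets were higher in this way, 1.06% lower and 2.03% either). The order of the diets was thus genistein, daidzein, control, with no separation between daidzein and control beyond their spread. Leaving out genistein 4 or control 5 brought the genistein to daidzein difference under the threshold (adjusted p = 0.0298 and 0.0228). The rise against control was kept whichever single array was left out, with log2 changes of 1.54 to 1.83, and it ended when only the genistein and control arrays entered the model (adjusted p = 0.05004) or when control 1 and daidzein 5 were left out together (adjusted p = 0.0612).

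Cyp2a2, the male-type neighbour of Cyp2a1, had levels of 5.69, 6.08, 5.18, 6.61 and 5.88 in genistein arrays 1 to 5. In the daidzein arrays they were 6.52, 6.57, 6.68, 6.55 and 6.75, and in the control arrays 6.41, 6.75, 6.25, 6.73 and 6.79. All genistein arrays but genistein 4 were below every daidzein and every control array. The genistein mean was 5.89 ± 0.53, that of daidzein 6.61 ± 0.10 and that of control 6.59 ± 0.24 (SD, n = 5 each), so the genistein arrays were also the most scattered. The log2 change was -0.70 with genistein against control (SE 0.20, 95% interval -1.13 to -0.27, unadjusted p = 0.00347, limma adjusted p = 0.175) and -0.73 with genistein against daidzein (95% interval -1.15 to -0.30, limma adjusted p = 0.184). Neither passed the test. Without genistein 4 both did, at -0.88 (adjusted p = 0.0189) and -0.91 (adjusted p = 0.0222). Daidzein against control gave 0.03 (95% interval -0.40 to 0.46, limma adjusted p = 0.983).

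Within each array, the level of Cyp2a1 minus that of Cyp2a2, set to 0 at the control mean, was 2.32 ± 0.76 with genistein, 0.42 ± 0.36 with daidzein and 0 ± 0.41 in control (SD, n = 5 each). It ranged from 1.25 to 3.39 with genistein, from -0.08 to 0.91 with daidzein and from -0.48 to 0.63 in control, so the genistein arrays stood apart from both other diets. Pearson's r between Cyp2a1 and Cyp2a2 over the 15 arrays was -0.66, and -0.10 for the deviations from the diet means, which describes these arrays only. The probe set annotated with both genes had means of 6.46 ± 0.15 with genistein, 6.36 ± 0.10 with daidzein and 6.37 ± 0.23 in control (SD, n = 5 each). Its 3 groups overlapped, and its log2 change with genistein against control was 0.09 (95% interval -0.14 to 0.33, limma adjusted p = 0.832). How this probe set divides its signal between Cyp2a1 and Cyp2a2 is unknown, and its annotation carries the same transcript as the Cyp2a1 probe set.

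**Figure D2:**
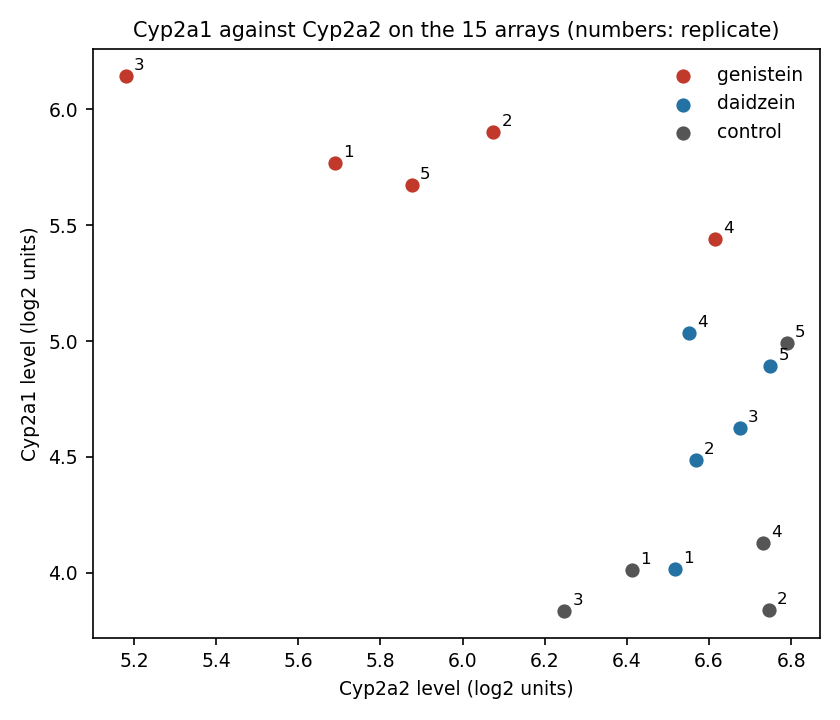
Level of Cyp2a1 (vertical axis) against that of Cyp2a2 (horizontal axis) in each of the 15 arrays, with 1 point per array and colours for the diets. Both are in log2 units with an arbitrary zero. The genistein arrays lie at the top, at Cyp2a1 levels of 5.44 to 6.14. Genistein 4 is the one that reaches the Cyp2a2 level of the other diets, at 6.61.

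The classical CAR targets Cyp2b1 and Cyp2b2, read through their shared probe set, did not rise with genistein. Levels were 3.06, 2.94, 3.36, 3.38 and 3.21 in genistein arrays 1 to 5. They were 4.35, 4.04, 3.45, 3.74 and 3.44 in the daidzein arrays, and 3.48, 3.52, 3.13, 3.74 and 3.46 in the control arrays. Genistein arrays were all below the control mean yet overlapped with control 3, while daidzein 1 and daidzein 2 stood above every other array. Means were 3.19 ± 0.19 with genistein, 3.80 ± 0.39 with daidzein and 3.47 ± 0.22 in control (SD, n = 5 each). The log2 change against control was -0.28 with genistein (95% interval -0.64 to 0.08, limma adjusted p = 0.605) and 0.34 with daidzein (95% interval -0.03 to 0.70, limma adjusted p = 0.639). Genistein was 1.53-fold below daidzein with no overlap between them (1.06% of all tested probe sets), but the difference of -0.61 (95% interval -0.98 to -0.25, unadjusted p = 0.00262) had a limma adjusted p of 0.183.

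Cyp2b3, the constitutive member, had levels of 7.40, 7.40, 7.51, 7.40 and 7.61 in genistein arrays 1 to 5. In the daidzein arrays they were 7.53, 7.57, 7.34, 7.45 and 7.19, and in the control arrays 7.51, 7.53, 7.52, 7.54 and 7.53. The 3 groups overlapped. The log2 change was -0.06 with genistein (95% interval -0.23 to 0.11, limma adjusted p = 0.849) and -0.11 with daidzein (95% interval -0.28 to 0.06, limma adjusted p = 0.739), and the compounds differed by 0.05 (95% interval -0.12 to 0.22, limma adjusted p = 0.906). Cyp2b3 is among the brightest probe sets, where quantile normalization narrows the spread: the control SD was 0.01 with it and 0.26 without it. Without quantile normalization the changes were -0.08 with genistein and -0.02 with daidzein, again not called.

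Por, the electron donor of the cytochromes P450, has 2 probe sets, and neither passed the test. On the dimmer one its levels were 2.77, 3.07, 3.35, 2.73 and 2.86 in genistein arrays 1 to 5, against 2.56, 2.68, 3.00, 3.19 and 2.45 in the daidzein arrays and 2.35, 2.18, 2.43, 2.72 and 2.78 in the control arrays. Every genistein array was above the control mean, with overlap among all 3 groups. The log2 change against control was 0.47 with genistein (SE 0.17, 95% interval 0.11 to 0.82, unadjusted p = 0.0136, limma adjusted p = 0.304) and 0.28 with daidzein (limma adjusted p = 0.688). On the brighter one the genistein arrays ranged from 3.09 to 3.90, the daidzein arrays from 2.77 to 3.79 and the control arrays from 2.71 to 3.29, with changes against control of 0.39 for genistein (limma adjusted p = 0.529) and 0.22 for daidzein (0.818). The genistein to daidzein difference was 0.18 on the dimmer probe set (95% interval -0.17 to 0.54) and 0.17 on the brighter one (95% interval -0.27 to 0.61). The Por probe sets followed each other closely, with r = 0.97 for deviations from the diet means over 15 arrays, and the dimmer one had r = 0.66 with Cyp2a1 on the same measure, a description with no test.

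Alas1, the first enzyme of heme synthesis, was called in no comparison and was most scattered with daidzein. Levels were 4.43, 4.77, 4.42, 4.45 and 4.41 in genistein arrays 1 to 5. They were 3.70, 4.96, 4.31, 4.63 and 4.97 in the daidzein arrays and 4.37, 4.14, 4.32, 4.68 and 4.57 in the control arrays. Daidzein held both the lowest and the highest array, with an SD of 0.53 against 0.16 with genistein and 0.21 in control. The log2 change against control was 0.08 with genistein (95% interval -0.35 to 0.52, limma adjusted p = 0.934) and 0.10 with daidzein (95% interval -0.33 to 0.53, limma adjusted p = 0.924), and the compounds differed by -0.01 (95% interval -0.45 to 0.42).

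Ces2c, the carboxylesterase, was the member with the second smallest p for genistein against control, and it did not pass. Its levels were 2.07, 2.49, 2.33, 2.39 and 2.29 in genistein arrays 1 to 5. In the daidzein arrays they were 1.76, 2.55, 2.09, 2.32 and 1.91, and in the control arrays 1.75, 2.07, 1.57, 1.80 and 1.90. All genistein arrays lay above the control mean, and the highest control array only just exceeded the lowest genistein array (2.074 against 2.068). The log2 change was 0.50 with genistein (1.41-fold, SE 0.14, 95% interval 0.19 to 0.80, unadjusted p = 0.00325, limma adjusted p = 0.172) and 0.31 with daidzein (95% interval 0.01 to 0.61, unadjusted p = 0.0454, limma adjusted p = 0.598). Genistein minus daidzein gave 0.19 (95% interval -0.11 to 0.49, limma adjusted p = 0.760).

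**Figure D3:**
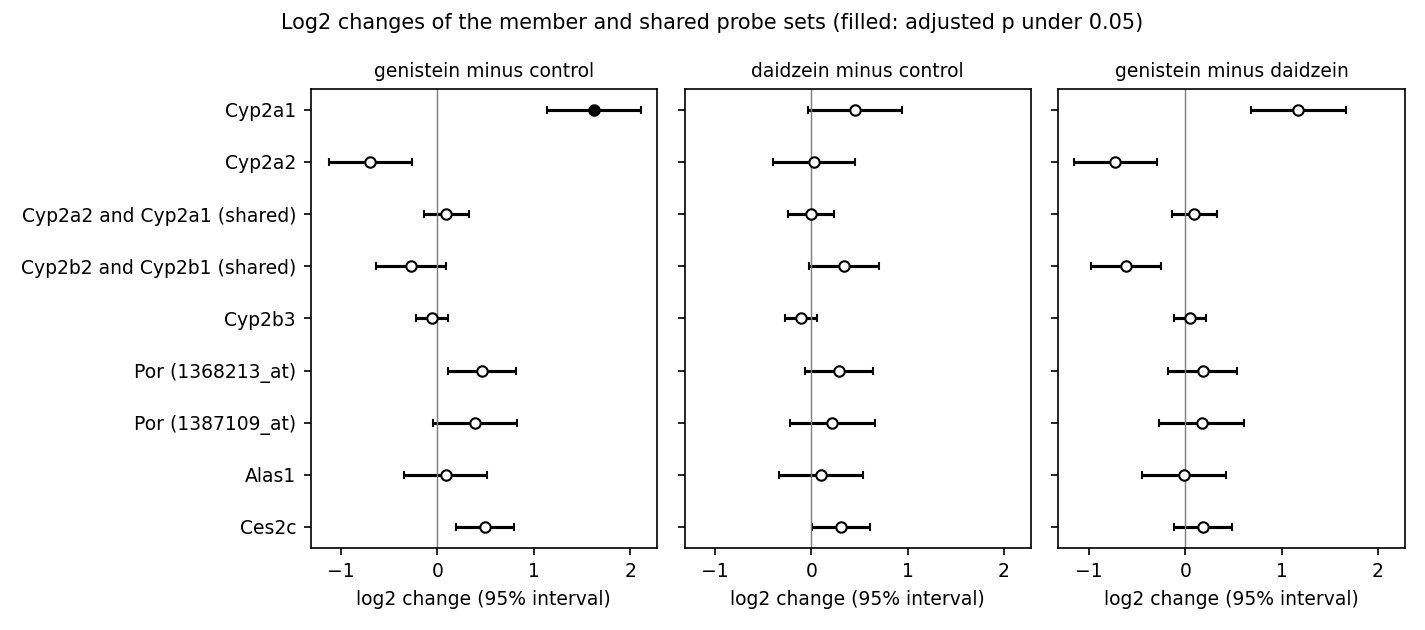
Log2 changes of the 9 probe sets in the 3 comparisons (each compound against control, and genistein against daidzein), with 95% intervals of the limma model and filled points where the adjusted p is under 0.05. The only filled point is Cyp2a1 in genistein against control, at 1.63.

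The compounds were compared as 1 pair at a matched dose and time. In the 9 probe sets, the difference with the largest size was that of Cyp2a1 (1.17), followed by Cyp2a2 (-0.73) and the shared Cyp2b1 and Cyp2b2 probe set (-0.61), and none had an adjusted p under 0.05. For the other 6 probe sets the differences lay between -0.01 and 0.19, and their intervals together spanned -0.45 to 0.61, which leaves differences of that size undecided with 5 arrays per diet.

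Other genes of the CAR pathway were taken from lists, each gene by its brightest probe set, and calls among all 10745 genes so represented were 0.158% higher and 0.177% lower with genistein, 0.0279% higher and none lower with daidzein, and 0.0279% higher and 0.112% lower between the compounds. Among 13 tested genes of CAR and its regulators, none rose and 1 fell with genistein, none was called with daidzein, and none between the compounds. The list medians were 0.05, -0.04 and 0.03, against 0.00 over all genes in each comparison. At an unadjusted limma p under 0.05, 1 was lower with genistein, 1 was higher with daidzein, and 2 were higher and 1 lower between the compounds, where 11%, 8.25% and 9.37% of all tested probe sets passed in either direction. These shares are the background for the unadjusted counts of every list that follows. The one that fell was Egfr, the epidermal growth factor receptor that holds CAR in check. Its levels were 4.45, 4.33, 4.46, 5.00 and 4.22 in genistein arrays 1 to 5, against 5.38, 5.14, 5.68, 5.01 and 5.32 in the daidzein arrays and 5.28, 5.51, 5.43, 5.47 and 5.77 in the control arrays. Every genistein array was below every control array, as in 1.35% of all tested probe sets (2.57% in either direction). Egfr fell by 1.00 on the log2 scale (SE 0.15, limma adjusted p = 0.0156), and genistein minus daidzein was -0.82 (limma adjusted p = 0.0569). The call against control ended without genistein 2 (adjusted p = 0.0588), with only the genistein and control arrays in the model (0.0589), without both control 1 and daidzein 5 (0.0612) and with a block of replicate numbers (0.0706).

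Nr1i3, which encodes CAR itself, had levels of 0.07, 0.76, 1.82, 1.01 and 1.74 in genistein arrays 1 to 5, 1.29, 1.27, 1.22, 1.23 and 1.80 in the daidzein arrays, and 0.69, 0.41, 0.53, 0.99 and 0.85 in the control arrays. Daidzein arrays all lay above the control arrays, as groups did for 0.94% of all tested probe sets in that direction and 1.88% in either, while the genistein arrays spread over both ranges. The log2 change with daidzein was 0.67 (SE 0.27, limma adjusted p = 0.548) and with genistein 0.39 (limma adjusted p = 0.661). Nr1i2, the related pregnane X receptor, differed by 0.27 between genistein and daidzein (limma adjusted p = 0.522). Rxra, the partner of CAR, gave 0.29 with daidzein (0.642), and the phosphatase subunit Ppp2r1a gave -0.18 with genistein (0.481).

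The next list held phase I enzymes other than the members that CAR and its relative PXR can switch on. Of 12 tested, 4 rose and none fell with genistein, and the list median was 0.23. At an unadjusted limma p under 0.05, 6 were higher and 2 lower (11% of all tested probe sets in either direction). The 2 lower ones were Cyp3a2 (log2 change -1.75, limma adjusted p = 0.120), which is named after its values were seen, and Cyp3a18 (-1.81, 0.0909), both P450 enzymes of the male liver. The 4 that rose were Cyp2c6v1, a drug-metabolising cytochrome P450 (log2 change 0.52, SE 0.08, limma adjusted p = 0.0180), Fmo5, a flavin monooxygenase (2.77, SE 0.44, 0.0198), Aldh1a1, a retinal dehydrogenase (1.72, SE 0.30, 0.0261), and Akr1b7, an aldo-keto reductase (4.65, SE 0.91, 0.0455). The genistein and control arrays did not overlap for Cyp2c6v1, Fmo5 and Aldh1a1 (1.21% of all tested probe sets were higher in this way, 2.57% either). For Akr1b7, however, control 5, at 2.83, exceeded genistein 4, at 2.41. The means of Akr1b7 in control (-0.24) and with daidzein (-0.30) lay near the filter level of -0.30. The sizes of its changes with genistein thus rest on dim values in the other diets. Fmo5 was uneven in control, at 0.25 in control 1 and 0.34 in control 3 but 2.23 to 2.58 in the other control arrays. The size of its change rests partly on these low arrays, and without control 1 it was 2.45. Leaving out a single array ended the call for 4 of the 15 arrays in Cyp2c6v1 and in Fmo5, for 6 in Aldh1a1 and for 12 in Akr1b7. A block of replicate numbers ended the calls of Cyp2c6v1, Aldh1a1 and Akr1b7 (adjusted p = 0.0617, 0.0706 and 0.148). That of Cyp2c6v1 also ended without quantile normalization (adjusted p = 0.175) and with array medians centred instead (0.411). For the 4 genes called with genistein, the changes with daidzein against control were 1.68 for Fmo5 (limma adjusted p = 0.346), 1.35 for Aldh1a1 (0.238), 0.30 for Cyp2c6v1 (0.346) and -0.06 for Akr1b7 (0.990). At an unadjusted limma p under 0.05, 5 of the 12 were higher and none lower with daidzein (8.25% of all tested probe sets in either direction). After adjustment, 1 of the 12 rose and none fell with daidzein, with a list median of 0.05. It was Ephx1, the microsomal epoxide hydrolase (log2 change 0.79, SE 0.12, limma adjusted p = 0.0453). Its daidzein levels of 6.55 to 6.99 all exceeded the control levels of 5.77 to 6.16 (0.94% of all tested probe sets, 1.88% in either direction). The call of Ephx1 ended without any 1 of 13 arrays and with a block of replicate numbers (adjusted p = 0.264). It also ended without quantile normalization (adjusted p = 0.191) and with array medians centred instead (0.544). Between the compounds none of the 12 was called, with a median of 0.18, and 5 were higher and 3 lower at an unadjusted limma p under 0.05 (9.37% of all tested probe sets in either direction). The values for genistein minus daidzein were 4.72 for Akr1b7 (limma adjusted p = 0.0667) and -1.82 for Cyp3a18 (0.110).

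Among 10 tested conjugating enzymes and transporters none was called with genistein or daidzein against control, with medians of 0.26 and 0.15, and none rose and 1 fell with genistein against daidzein, with a median of 0.14. Unadjusted, 1 was higher and 2 lower with genistein, 2 were higher with daidzein, and 1 was higher and 3 lower between the compounds, at limma p under 0.05. The one called was Gstm1, a glutathione transferase (log2 difference -0.49, SE 0.07, limma adjusted p = 0.0140). Its changes against control were -0.28 with genistein (0.0905) and 0.20 with daidzein (0.429). The call ended without genistein 1 (adjusted p = 0.0504), without daidzein 3 (0.0560) and with a block of replicate numbers (0.0829). It also ended without quantile normalization (adjusted p = 0.141) and with array medians centred instead (0.474). Its relative Gstm2 gave -0.77 between the compounds (0.0569) and 0.55 with daidzein (0.346), and Abcc2, an export pump of the bile canaliculus, gave 0.50 with genistein (0.142).

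Partners of Alas1 and Por were called in no comparison. Of the heme list 15 genes were tested, with medians of -0.01 with genistein, 0.01 with daidzein and -0.03 between the compounds. The lowest p belonged to Abcb10 and Hmox1, the heme-degrading oxygenase, with genistein (-0.28, adjusted p = 0.334, and -0.26, 0.505), to Slc25a39 and Hmox1 with daidzein (0.26, 0.382, and -0.31, 0.569), and to Urod between the compounds (0.20, 0.534). Unadjusted, 1 heme gene was lower with genistein, and 2 were higher and 1 lower with daidzein, at limma p under 0.05. Of the electron donors 7 were tested, with medians of -0.07, 0.12 and -0.13 in the same order. Values nearest the threshold were 0.14 for Cyb5a, cytochrome b5, with daidzein (limma adjusted p = 0.634) and -0.41 for Me1, the malic enzyme, between the compounds (0.507), which was the only unadjusted limma p under 0.05. The progesterone receptor membrane components Pgrmc1 and Pgrmc2 gave -0.10 and -0.08 with genistein (0.769 for both).

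Relatives of Ces2c and of the P450 cluster were also not called. The carboxylesterase list had 5 tested genes, and its medians were 0.17 with genistein, 0.35 with daidzein and -0.18 between the compounds. Ces1c gave 0.35 and Ces1e 0.34 with daidzein (limma adjusted p = 0.382 and 0.415), Ces1d gave -0.95 for genistein minus daidzein (0.217), Ces5a gave 0.86 with genistein (0.339), and the related deacetylase Aadac 0.26 (0.434). Unadjusted, 2 of the 5 were higher with genistein, 2 were higher with daidzein, and 1 was higher and 2 lower between the compounds at limma p under 0.05. Of the other genes in the Cyp2a and Cyp2b cluster 3 were tested, with changes for genistein of 0.19 for Cyp2t1 (0.574), 0.14 for Cyp2f4 (0.659) and -0.20 for Cyp2g1 (0.807), and none of the 3 had an unadjusted limma p under 0.05 in any comparison.

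Since Cyp2a1 and Cyp2a2 are sex-typed in the rat, a list of other sex-biased liver genes was read beside them. Of 14 tested, 2 rose and 1 fell with genistein, none was called with daidzein or between the compounds, and the medians were -0.25, -0.07 and -0.18. At an unadjusted limma p under 0.05, 6 were higher and 6 lower with genistein, 1 was higher with daidzein, and 6 were higher and 6 lower between the compounds (11%, 8.25% and 9.37% of all tested probe sets in either direction). Sult2a6, a hydroxysteroid sulfotransferase (log2 change 3.75, limma adjusted p = 0.00891), and Prlr, the prolactin receptor (2.48, 0.0340), both higher in female livers, rose. Hsd3b5, a steroid dehydrogenase typical of male livers, fell by 3.63 (0.0481). Hsd3b5 levels in genistein arrays 1 to 5 were 0.90, 1.41, 0.34, 5.13 and 3.82, against 4.82 to 6.10 in the daidzein arrays and 5.39 to 6.33 in the control arrays. Genistein 4 and genistein 5 thus stood apart from the other 3 genistein arrays, and genistein 4 lay within the daidzein range. Obp3, also on this list, was at 6.13 in genistein 4 and at -0.94 to 3.72 in the other genistein arrays, with 5.86 to 7.02 in the daidzein arrays and 6.56 to 7.04 in the control arrays. Genistein 4 was likewise the array that reached the control levels of Cyp2a2. The call of Hsd3b5 ended without any 1 of 13 arrays and that of Prlr without any 1 of 9, and a block of replicate numbers ended both (adjusted p = 0.114 and 0.0891). That of Sult2a6 was kept without each single array and ended with only the genistein and control arrays in the model (adjusted p = 0.05004). Akr1c14, a hydroxysteroid dehydrogenase, gave 0.63 with genistein (0.0729). Of 9 tested pericentral genes, expressed around the central vein where CAR targets are strongest, Aldh1a1 rose with genistein and Oat, ornithine aminotransferase, was higher with genistein than with daidzein (0.99, limma adjusted p = 0.0328), and none was called with daidzein against control. At an unadjusted limma p under 0.05, 2 were higher and none lower with genistein, 1 was higher and 1 lower with daidzein, and 3 were higher and none lower between the compounds (11%, 8.25% and 9.37% of all tested probe sets in either direction). The call of Oat ended without any 1 of 9 arrays and with a block of replicate numbers (adjusted p = 0.1005). It also ended without quantile normalization (adjusted p = 0.109) and with array medians centred instead (0.192). Cyp2e1 gave 0.34 between the compounds (0.411), and Gulo gave -0.33 with daidzein (0.395). Of 10 tested periportal genes none was called in any comparison. Unadjusted, 1 was lower with genistein, 2 were lower with daidzein, and 1 was higher and 1 lower between the compounds at limma p under 0.05. The values nearest the threshold for genistein were -0.95 for Sds (0.305) and -0.12 for Ass1 (0.632), and for daidzein -0.50 for Aldh1b1 (0.542) and -0.61 for Hsd17b13 (0.593).

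**Figure D4:**
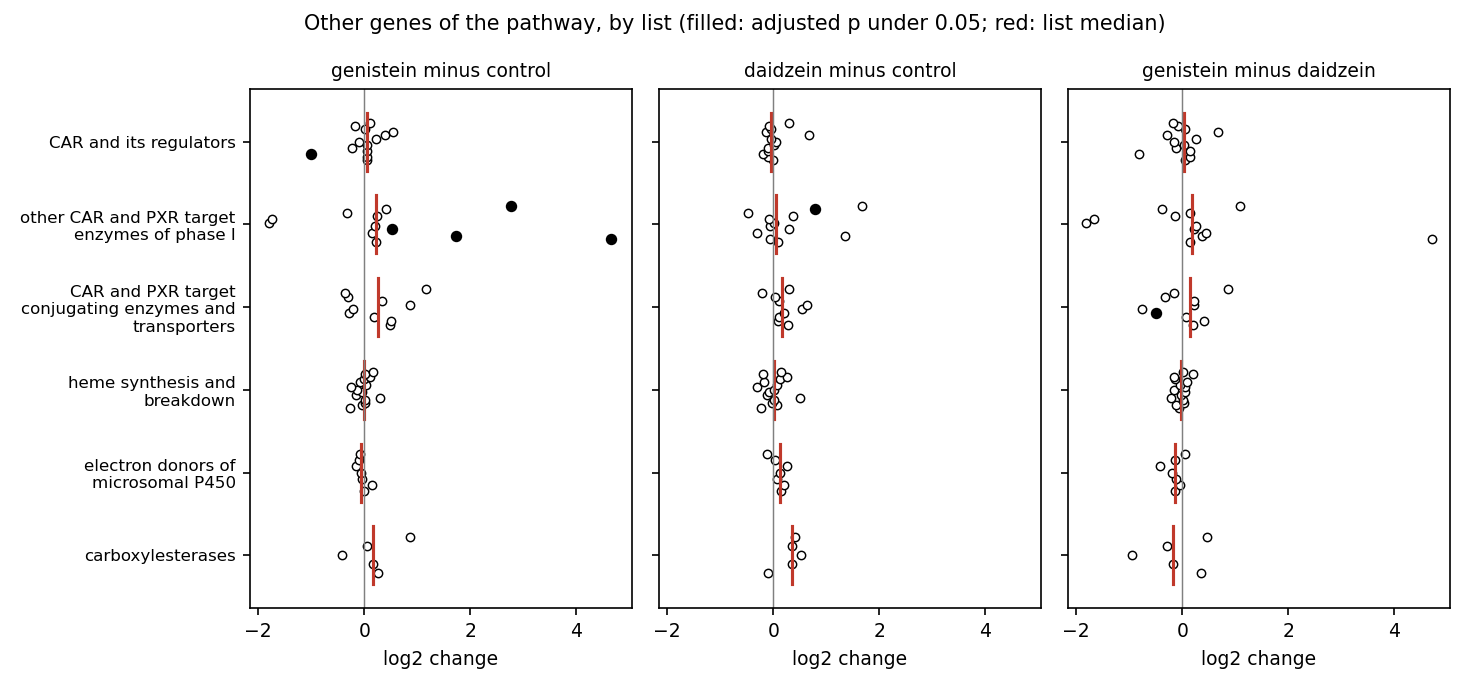
Log2 changes of the tested genes in 6 pathway lists for each comparison, with 1 point per gene and a red line at each list's median. With genistein against control the phase I list reaches from -1.81 to 4.65 around a median of 0.23, while the heme list stays between -0.28 and 0.29. The value of 4.65 is that of Akr1b7, whose control mean lay near the filter level.

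The genes whose levels ran most closely with the P450 members over the 15 arrays were found by Pearson's r, a description in which all points share the diets and the normalization. For Cyp2a1 they were Tmem64 (r = 0.95, and 0.76 for deviations from the diet means), a membrane protein, the chemokine Ccl9 (0.94 and 0.81) and Ugt2b34l1, a glucuronosyltransferase (0.94 and 0.72). For Cyp2a2 they were Epha3, an ephrin receptor (0.92 and 0.83), Obp3, an odorant-binding protein of the male rat liver (0.92 and 0.81), and Cd46, a complement regulator (0.89 and 0.83). For Cyp2b3 they were the class I histocompatibility gene RT1-T24-4 (0.84 and 0.87), Isoc2b (0.82 and 0.82) and Polr3k, a subunit of RNA polymerase III (0.82 and 0.77).

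The tissue label was read against cell type markers. The mean level of 6 hepatocyte markers was 7.80 to 8.05 with genistein, 7.86 to 8.10 with daidzein and 7.95 to 8.16 in control. Among them, Alb was at 9.29 in every array. Ttr, Apoa1, Apoh and Serpina1 lay between 8.13 and 8.73, at bright levels where quantile normalization narrows the spread. The spread of the hepatocyte mean thus came mostly from Tat (3.56 to 5.58 over the arrays), so this mean says little about hepatocyte content. Stellate cell markers (6 of 6 tested) ranged from 2.07 to 2.23 with genistein, from 1.80 to 2.04 with daidzein and from 2.07 to 2.22 in control, so the daidzein arrays lay below those of both other diets. The ranges of Kupffer cell markers (5 of 6 tested) were 2.10 to 2.80, 1.95 to 2.42 and 2.42 to 2.74 in the same order. There the daidzein arrays lay narrowly below the control arrays (highest 2.4157 against lowest 2.4161) and overlapped with the genistein arrays. Endothelial (4 of 6), cholangiocyte (2 of 5) and lymphocyte markers (4 of 6) overlapped in all 3 diets, and the cholangiocyte keratins Krt19 and Krt7 and the T cell gene Cd3d did not reach the filter level. The lymphocyte means (-0.41 to 0.34 over the arrays) lay around the filter level of -0.30. Those of cholangiocytes (0.26 to 0.86) were not far above it, so the overlap says little about either cell type. No marker gene was called by limma, and the unadjusted counts at p under 0.05 follow, with 11%, 8.25% and 9.37% of all tested probe sets passing in the 3 comparisons. Genistein against control had 1 hepatocyte marker lower, Tat (log2 change -1.02, limma adjusted p = 0.222, named after its values were seen), and 1 lymphocyte marker lower, Cd3e (-1.19, 0.368, likewise). The genistein levels of Cd3e, -1.23 to -0.13, lay mostly below the filter level of -0.30. Cd3e passed the filter on its mean over all arrays, so its change rests on dim values. Daidzein against control had 3 stellate and 2 Kupffer cell markers lower and none higher. Genistein against daidzein had 2 stellate and 1 endothelial cell markers higher and none lower. The part of these shifts in the results was not tested.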

How the data were processed

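Liver RNA was labelled with biotin by the 1-cycle Affymetrix method and hybridised to 1-channel rat arrays, per the labels. The values the authors deposited are scores, a standardized log signal per array for 31099 probe sets. The log scale behind them was worked out from repeated values: once each array was exponentiated with its own scale, the gaps between these values were whole steps within 0.001 in 375 of 375 cases. It averaged 2.60 log2 units per score unit (2.54 to 2.79 over the arrays), so log2 changes depend on this inference. The upstream background correction, probe summary and scaling are not given in the sources used here. Deposited array medians ran from 0.00111 to 0.127.

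Scores were multiplied by the common factor, 57 control probe sets were dropped, and the arrays were quantile normalized. The 18625 of 31042 probe sets whose mean level reached the 40th percentile were tested, none with a missing value (260 values in 97 other probe sets were missing). One 3-group model was fitted with lmFit and eBayes (limma 3.58.1, R 4.3.3; 12 residual and 2.58 prior degrees of freedom), two-sided, with Benjamini-Hochberg adjustment per comparison and a threshold of 0.05. On simulated data for genistein against control over 18625 probe sets, the steps recovered 83 of 100 changes of 1 log2 unit and 97 of 100 changes of 2, with 11 false calls. The simulated noise was independent and normal, with 1 SD per probe set, and each change was the same in all genistein arrays. Scatter shared by the probe sets of an array and SDs that differ between diets were not simulated, so these rates hold for that setting only. The array annotation gave 20832 probe sets 1 symbol, 436 several and 9780 none, and 20764 matched the GRCr8 RefSeq table.

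The members and lists were chosen with earlier results of these data known. Every member probe set is described. From the lists, genes called in any comparison and up to 2 per list and comparison with the lowest p are named, along with the 3 genes most like each P450 member with a probe set of its own. Descriptions carry other numbers than titles in 9 arrays, and the description of genistein 3 bears an unexplained "-re". Arrays are named by their titles, and their number limits the precision. Alternatives were the normalization, the scale, the filter, the model and leaving out arrays; their use for list genes was added after seeing the data.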

Additional observations from a re-analysis of the deposited data

Results flagged for a closer look

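In each group of 5 arrays, the highest or lowest array was compared with the rest by Dixon's ratio (critical value 0.71) for the 9 member and shared probe sets and the named genes, 177 groups in all, and chance alone marks about 5% of groups. Cyp3a2 and the cell type markers Tat and Cd3e were not among the genes checked. Among the members, Alas1 in genistein 2 stood at 4.775, above the other genistein arrays (4.41 to 4.45), and Cyp2a1 in control 5 stood at 4.99, above the other control arrays (3.83 to 4.13). Among the genes of the lists, Nr1i3 in daidzein 5 was high at 1.798 (the next array at 1.29) and Nr1i2 in genistein 3 high at 3.068 (the next at 2.58). Cyp2c6v1 in genistein 4 was low at 7.692 and Sult2a6 in genistein 4 low at 4.409, below genistein arrays that began at 7.76 and 5.91. The other genistein arrays of Cyp2c6v1 lay within 7.763 to 7.774, at bright levels where quantile normalization narrows the spread. Its flag thus marks a small difference. Urod in genistein 1 was low at 4.195, where the next array had 4.45. Abcb10 and Ass1 in control 5 were low at 1.757 and 7.658, and Ces1c in control 4 was high at 7.262. Among the genes whose levels followed Cyp2a2, Epha3 in control 1 was low at 0.3203 and Cd46 in control 3 was low at 0.01072.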

How the results depend on the processing

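Of 702 values (27 log2 changes of the member and shared probe sets under 26 alternatives), 668 kept direction and side of the threshold, 2 lost the call, 7 gained one, none reversed a call and 25 changed sign with neither value called. Both losses were Cyp2a1 against control, given with its result, and 5 of the 7 gains were Cyp2a1 between the compounds: with 16 added to the intensities (adjusted p = 0.0492), with the filter at the 60th percentile (0.0403), with trend and robust eBayes (0.0462), and without genistein 4 or control 5. The other gains were both Cyp2a2 comparisons without genistein 4. Member calls with genistein against control (1) were 0 with only the compared arrays (4 at an unadjusted limma p under 0.05) and 0 without both control 1 and daidzein 5, and 1 to 2 without single arrays. Those with daidzein were 0 under every alternative (0 to 0 without single arrays), and those between the compounds (0) were 1 with 16 added, 1 at the 60th percentile, 1 with trend and robust eBayes, and 0 to 2 without single arrays.

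Calls over all tested probe sets with genistein against control (60) were 34 with medians centred, 14 with no filter, 124 at the 60th percentile, 0 with only the compared arrays (1896 at an unadjusted limma p under 0.05, lowest adjusted p 0.05004), 110 with trend and robust eBayes, 140 with array weights, 4 without both control 1 and daidzein 5, and 10 (without control 1) to 203 (without genistein 4) without single arrays. With daidzein against control (3) they were 7 at the 60th percentile, 6 with trend and robust eBayes, 7 with array weights, 1 without both control 1 and daidzein 5, and 2 to 8 (without daidzein 1) without single arrays. Between the compounds (21) they were 9 with medians centred, 36 with 16 added, 3 with no filter, 67 at the 60th percentile, 2 with only the compared arrays (1604 unadjusted), 53 with trend and robust eBayes, 74 with array weights, 4 without both control 1 and daidzein 5, and 3 (without daidzein 3) to 136 (without genistein 4) without single arrays. The cause was not tested.

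Arrays of the same title number showed low correlations of their deviations from the diet means. Of 15 same-number pairs, 1 correlated above 0.1 (r from -0.163 to 0.109). Pairs of different numbers were not compared, so a pairing by title number was not tested. With the replicate block, 17 probe sets were called with genistein, 2 with daidzein and 2 between the compounds, and Cyp2a1 kept its call with genistein (adjusted p = 0.0374). The block ended 9 of the 11 list gene calls (adjusted p 0.0617 to 0.264) and kept those of Fmo5 and Sult2a6.

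Among list genes with genistein, the call ended without genistein 2, genistein 3, control 1 or control 3 for Cyp2c6v1 (adjusted p 0.0564 to 0.0667) and Fmo5 (0.0532 to 0.0706). For Aldh1a1 it ended without genistein 1, 2 or 3 or control 1, 3 or 4 (0.0596 to 0.0911). For Akr1b7 it ended without each array but genistein 4, daidzein 5 and control 5 (0.0644 to 0.131), for Hsd3b5 without each but genistein 4 and genistein 5 (0.0582 to 0.132), and for Prlr without genistein 1, 2, 3 or 5, daidzein 3 or control 1 to 4 (0.0504 to 0.111). Ephx1 with daidzein lost its call without each array but genistein 4 and daidzein 2 (0.0555 to 0.211), and Oat between the compounds without genistein 1, 2, 3 or 5, daidzein 2 to 5 or control 2 (0.0527 to 0.116). Of the 11 settings that leave out no single array, between 1 and 6 ended each of the 11 list gene calls, with adjusted p up to 0.544.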
